A study of Homo sapiens with 23 samples.

Results

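Bidirectional promoters are stretches of DNA between the start sites of a gene pair that is transcribed in opposite directions, away from each other. Here they were taken as pairs of protein-coding genes of GENCODE 44 on opposite strands, in divergent order, whose transcription start sites (TSSs) lie at most 1000 bp apart on chromosomes 1 to 22 and X. The rule found 887 pairs, made from 1710 of 19970 protein-coding gene starts. A TSS is the 5′ end of the whole gene record, which may lie outside the start used in a given cell. Each region ran from 1000 bp outside the left TSS to 1000 bp outside the right TSS, and was 2002 to 2996 bp long (median 2133 bp). The TSSs were 1 to 995 bp apart (median 132 bp). Some pairs share a start or lie close together, so that the 887 regions formed 824 groups of overlapping regions, and 63 genes belonged to more than 1 pair.

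In such a promoter a single nucleosome-poor stretch can serve both genes, and the first nucleosomes of either gene stand on its outer sides. These promoters are typically CpG-rich, seldom hold a TATA box, and often drive housekeeping genes for DNA repair, mitochondrial function and translation. Histone acetylation at active promoters is found on the nucleosomes that flank the start sites. Propionylation and butyrylation are longer acyl groups that can be placed on the same lysines from propionyl-CoA and butyryl-CoA.

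The measurements were made by chromatin immunoprecipitation followed by sequencing (ChIP-seq), which maps a histone mark by pulling down chromatin with an antibody, in SW480 cells, a line of human colorectal cancer epithelium. Propionylated H3K18 and H4K12 (H3K18pr, H4K12pr) were mapped after 10 mM sodium propionate (NaPr) and the butyrylated forms (H3K18bu, H4K12bu) after 1 mM sodium butyrate (NaBu). Acetylated H3K18 and H4K12 (H3K18ac, H4K12ac) were mapped after NaPr, after NaBu and in untreated cells. There were 2 libraries in each of these 10 groups and 1 input library, sheared chromatin without antibody, for each of the 3 conditions, and the labels do not say whether replicates were separate cultures, so p-values may measure technical spread.

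The 20 lists of immunoprecipitated libraries held 8158 to 208823 peaks, and no 2 lists were identical. In the 12 such libraries of NaPr and untreated cells, the background was worked out from the deposited fold and p-value of the peaks, with the formulas of MACS2 assumed. Its lowest value, divided by the length of the shortest peak, was 3.38 to 8.38 fragments per kb in the propionyl libraries. In the acetyl libraries it was 11.2 to 38.6, and in the NaBu libraries it could not be worked out. The names of the lists carry 3 run tags, 1 shared by the propionyl libraries and the NaPr input, 1 by the acetyl libraries of NaPr and untreated cells and the untreated input, and 1 by all NaBu libraries. Propionyl and acetyl in NaPr, and NaBu and untreated cells, therefore cannot be told apart from their run, whereas H3K18 and H4K12 were compared within a run throughout. Each mark had its own antibody in the paper, so that differences between lysines or acyl groups cannot be told apart from those between antibodies. Of 10 fixed markers of colon epithelium, 9 had a peak at their start in at least 1 of the 4 untreated acetyl libraries. KRT8 and KRT18 had one in 20 of 20 libraries, CDX1 in 3 and KRT20 in 1. Of 13 markers of other cell types, 7 had a peak in at least 1 untreated acetyl library, with COL1A1 in 11 and GFAP in 10 of 20 libraries. PTPRC, ALB, APOA2 and MYH6 had a peak in 0 of 20. The profile of 1 library stood apart from that of its replicate. The library labelled H3K18ac replicate 1 in NaPr held 202787 peaks against 95194, and the percentage of members under a peak at the midpoint between the TSSs, minus the mean of the 2 positions 500 bp outside them, was −48.1 points against −15.7 in its replicate and −46.7 and −43.5 in H4K12ac of untreated cells. Its label may be wrong, which was not tested, and the comparisons that rest on it are also given without it.

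The stretches between the TSSs of 8 pairs are shown because the peaks described further on lie beside such intervals or over them. Their letters show how CpG-rich and how different in promoter elements these short intervals are. They are 5′ to 3′ on the plus strand of hg38, from the left TSS to the right TSS. Capitals mark matches, on either strand, to the ETS element (CCGGAAGT), the NRF1 element (GCATGCGC), the NF-Y box (CCAAT), the SP/KLF box (GGGCGG), a YY1 element (AAGATGGC), a CGCG palindrome (CTCGCGAG), TATAAA and the AP-1 element (TGANTCA).
PPAT/PAICS, chr4:56435615-56435741: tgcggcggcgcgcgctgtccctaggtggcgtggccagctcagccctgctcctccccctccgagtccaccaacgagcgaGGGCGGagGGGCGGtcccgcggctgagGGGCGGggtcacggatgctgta
TMEM258/FEN1, chr11:61792802-61792911: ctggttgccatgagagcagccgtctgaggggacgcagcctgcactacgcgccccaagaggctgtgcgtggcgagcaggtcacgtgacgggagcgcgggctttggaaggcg
SARS2/MRPS12, chr19:38930763-38930944: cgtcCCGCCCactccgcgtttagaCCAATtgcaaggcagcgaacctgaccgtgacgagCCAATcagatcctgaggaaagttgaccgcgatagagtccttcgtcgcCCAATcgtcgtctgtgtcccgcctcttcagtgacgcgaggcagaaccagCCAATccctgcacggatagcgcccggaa
TK1/AFMID, chr17:78187233-78187358: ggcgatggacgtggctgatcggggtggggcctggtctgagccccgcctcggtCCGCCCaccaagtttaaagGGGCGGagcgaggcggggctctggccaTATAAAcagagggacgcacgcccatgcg
COL4A4/COL4A3, chr2:227164453-227164624: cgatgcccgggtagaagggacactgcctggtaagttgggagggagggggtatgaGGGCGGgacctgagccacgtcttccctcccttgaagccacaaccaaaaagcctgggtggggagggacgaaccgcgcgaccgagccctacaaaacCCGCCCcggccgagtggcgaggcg
BRCA1/NBR1, chr17:43170245-43170481: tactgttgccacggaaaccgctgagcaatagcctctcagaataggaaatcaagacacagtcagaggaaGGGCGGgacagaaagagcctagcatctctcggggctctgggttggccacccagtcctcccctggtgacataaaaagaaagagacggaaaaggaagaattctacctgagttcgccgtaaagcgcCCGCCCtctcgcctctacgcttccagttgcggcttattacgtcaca
MMUT/CENPQ, chr6:49463253-49463370: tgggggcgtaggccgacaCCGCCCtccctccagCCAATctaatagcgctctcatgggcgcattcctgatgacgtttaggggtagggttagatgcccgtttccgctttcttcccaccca
ZC4H2/ZC3H12B, chrX:65034713-65034788: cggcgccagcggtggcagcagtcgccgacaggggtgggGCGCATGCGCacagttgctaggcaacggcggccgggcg

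The 8 intervals were 76 to 237 bp long and held 53.6% to 76.3% G and C, with 8 to 19 CG dinucleotides each. SARS2/MRPS12, between a mitochondrial seryl-tRNA synthetase and a mitochondrial ribosomal protein, held 4 NF-Y boxes in the same orientation. The interval of TK1, which encodes thymidine kinase, was the one of the 8 with a TATAAA match. The interval of ZC4H2/ZC3H12B held overlapping NRF1 matches on both strands, since this element overlaps its own reverse complement, and that of TMEM258/FEN1 held no match.

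Over all members the same features were counted in a window of 300 bp centred on the midpoint between the TSSs. They were counted likewise in a window centred on the TSS of the 16492 single promoters. These are protein-coding starts with no other protein-coding start, on either strand, within the distance limit set for the pairs. A further 1768 protein-coding starts were neither in members nor single promoters. The ETS element was found in 14.0% of bidirectional promoters, 3.93% of single promoters and 5.16% of all protein-coding starts. The NRF1 element was found in 9.13%, 2.94% and 3.61%, and the YY1 element in 5.98%, 3.26% and 3.65%. The SP/KLF box was found in 70.7%, 51.8% and 54.3%, the NF-Y box in 40.6%, 33.4% and 33.7%, and the CGCG palindrome in 2.48%, 0.994% and 1.24%. TATAAA was found in 5.19%, 10.1% and 9.20%, and the AP-1 element in 3.04%, 6.34% and 5.91%. The median G and C content of a 2000 bp window was 56.6% at bidirectional and 54.7% at single promoters, and 50.7% against 33.96% of windows were CpG-rich, which means at least 55% G and C with an observed over expected CpG ratio of at least 0.6.

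The first question was how many bidirectional promoters carried each mark, meaning that a peak of the library overlapped the region by at least 1 bp. In untreated cells nearly all did. H3K18ac was found at 94.3% and 94.8% of members in replicates 1 and 2 (95% Wilson interval of the first 92.5% to 95.6%, which covers counting error only), and H4K12ac at 94.1% and 93.2%. After NaPr, H3K18ac was found at 94.8% and 81.3% of members, and H4K12ac at 51.1% and 41.7%. H3K18pr was found at 83.7% and 75.5%, and H4K12pr at 87.9% and 81.3%. After NaBu, H3K18ac was found at 90.1% and 79.0%, and H4K12ac at 61.1% and 31.8%. The butyryl marks were found at the fewest members, H3K18bu at 39.9% and 26.4% and H4K12bu at 23.7% and 16.6%. In each of the 8 treated groups the counting intervals of the 2 libraries did not overlap, and the H4K12ac libraries in NaBu, with 88658 and 11680 peaks, differed most.

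The input lists held a peak at 10.4% (NaPr), 3.38% (NaBu) and 30.0% (untreated) of members. All immunoprecipitated libraries but H3K18bu replicate 2 and both H4K12bu libraries exceeded the value of the untreated input, and those 3 exceeded that of the NaBu input. An occupied member held 1.14 to 1.29 peaks on average in the butyryl libraries, 1.38 to 1.53 in the propionyl libraries and 2.16 and 2.19 in H4K12ac of untreated cells.

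Bidirectional promoters were marked more often than single promoters in every group. In windows of 2000 bp, centred on the midpoint or on the single TSS, the mean difference in the percentage with a peak was 27.9 points over the 10 group means, and it was positive in 10 of 10 groups (two-sided exact sign-flip permutation test, adjusted p = 0.0110 by Benjamini-Hochberg over 19 tests). H3K18ac in untreated cells was found at 94.4% ± 0.239 (SD, n = 2) of bidirectional and 61.2% ± 2.98 of single promoters. H4K12pr was found at 84.1% ± 5.10 and 52.9% ± 5.34, and H4K12bu at 19.8% ± 5.10 and 7.46% ± 1.70. The groups used the same cells and gene starts, so that they are not independent of each other. A bidirectional window holds the TSSs of both genes, and a single window its own alone. The part of this in the differences was not tested. The percentage of window bases under a peak was 16.5 points higher at bidirectional promoters, again in 10 of 10 groups (exact sign-flip permutation test, adjusted p = 0.0110). The untreated input also had a peak at more bidirectional (29.0%) than single promoters (15.9%), and the shares were 9.47% and 7.57% for the NaPr input and 3.16% and 2.75% for the NaBu input. Without promoters under an input peak the differences were 30.4 and 17.4 points, and among CpG-rich windows alone they were smaller, at 14.9 and 10.5 points (exact sign-flip permutation tests, adjusted p = 0.00928 in each case). With the same number of the strongest peaks taken from each library (8158, the length of the shortest list) they were 16.6 and 8.21 points (exact sign-flip permutation tests, adjusted p = 0.0124).

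**Figure D1:**
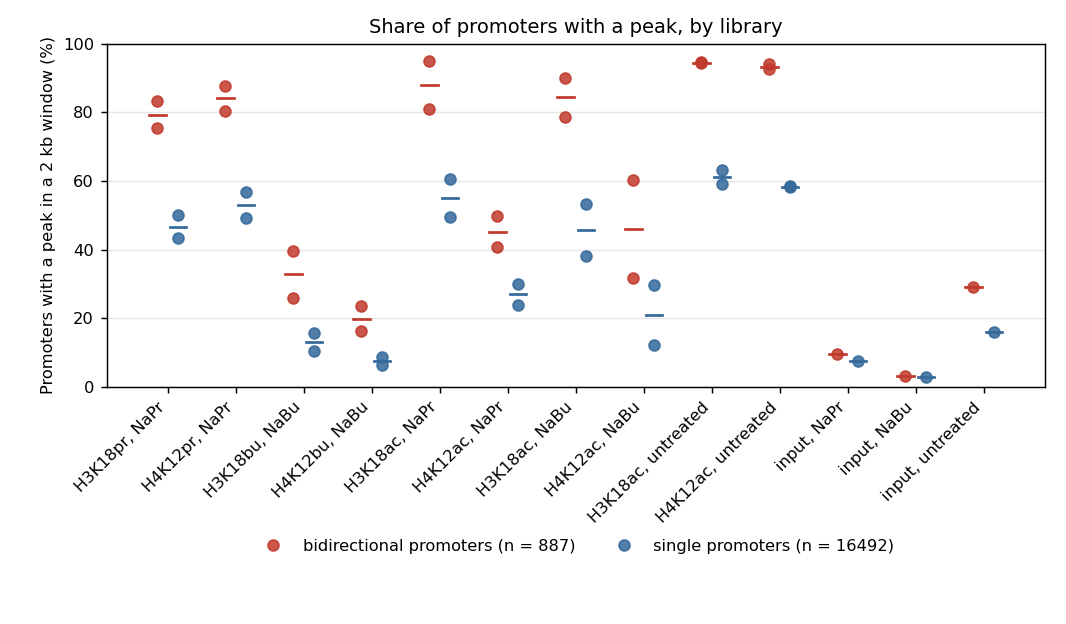
Percentage of promoters with a peak in a 2000 bp window (vertical axis) for each group (horizontal axis). Points are libraries and short lines are group means, red for the 887 bidirectional and blue for the 16492 single promoters. Red lies above blue in all 20 immunoprecipitated libraries, and the 4 H4K12ac libraries of treated cells lie between 31.8% and 60.2% for bidirectional promoters, below both untreated libraries (92.7% and 94.0%).

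A member had a peak in a median of 14 of the 20 immunoprecipitated libraries, and a single promoter in a median of 8. At least 10 libraries had a peak at 84.9% of bidirectional and 44.9% of single promoters in the 2000 bp window. All 20 had one at 62 members (6.99%), against 2.304% of single promoters. No library had one in the region of 23 members (2.59%), and 2.71% of bidirectional against 18.9% of single promoters had none in the 2000 bp window. Among the 62 members marked throughout, those whose least covered library was among the highest included PHB2/EMG1 and the overlapping PHB2/ENSG00000290146, STX10/IER2 and FUBP1/DNAJB4. Peaks covered at least 37.0% of the region of PHB2/EMG1 (chr12:6969780-6971913), a mitochondrial prohibitin and a ribosome biogenesis factor, in each library. These minima were 34.5% for STX10/IER2 (chr19:13149383-13151411) and 30.6% for FUBP1/DNAJB4 (chr1:77978110-77980175), and the PHB2 pairs also overlapped an input peak.

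The first 5 of the 23 unmarked members in chromosome order were SRGAP2B/FAM72D, DCST2/DCST1, MORC1/C3orf85, PAQR9/U2SURP and GABRA4/GABRB1. GABRA4 and GABRB1 encode subunits of a neuronal GABA receptor, and MORC1 is known from the male germ line. SRGAP2B and FAM72D belong to recently duplicated segments, where reads that match several copies cannot be placed, so that the absence of a peak there is uncertain. The type IV collagen pair COL4A6/COL4A5 (chrX:108438497-108440838) was unmarked too. Over the 20 libraries, peaks at these members were not detected at the depth of the lists.

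Among the pairs fixed by name, 13 of 32 met the rule, and their cover by peaks is plotted for each library. PPAT and PAICS encode enzymes of purine synthesis. Peaks covered 100% and 71.1% of the PPAT/PAICS region (chr4:56434615-56436741) in H3K18ac of untreated cells, and 73.9% and 49.4% in H4K12ac of untreated cells. The cover was 64.4% and 63.4% for H3K18pr, 46.9% and 40.3% for H4K12pr, 8.37% and 0% for H4K12ac after NaPr, 0% and 0% for H3K18bu and 0% and 9.36% for H4K12bu. The untreated and propionyl libraries were thus high, and those of the butyryl marks and of H4K12ac after NaPr were low, without overlap.

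NPAT/ATM (chr11:108221638-108224044), which pairs an activator of histone gene transcription with a DNA damage kinase, had a peak in 18 of 20 libraries, with a median cover of 42.4%. PRKDC/MCM4, a DNA repair kinase and a subunit of the replicative helicase whose TSSs are 7 bp apart, had a peak in 19 of 20, with a median cover of 40.4%. TMEM258/FEN1 (chr11:61791802-61793911), with the flap endonuclease of DNA replication, had the highest median cover of the 13 (60.55%) and was covered whole in both H4K12ac libraries of untreated cells. SARS2/MRPS12 (chr19:38929763-38931944) had a peak in 18 libraries. SIRT3/PSMD13 (chr11:235931-237966), a mitochondrial deacetylase and a proteasome subunit, had a peak in 15 libraries, with 0 of the 4 butyryl libraries among them. BRCA1/NBR1 (chr17:43169245-43171481), with the breast cancer susceptibility gene of DNA repair, had a peak in 17 libraries. Peaks covered 100% and 83.95% of it for H3K18pr and 91.55% and 86.3% for H4K12pr, against 0% in both H4K12ac libraries of NaPr.

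MMUT, methylmalonyl-CoA mutase, acts in the breakdown of propionyl-CoA, and MMUT/CENPQ (chr6:49462253-49464370) had a peak in 12 libraries. Its cover for H3K18ac was 67.7% and 49.1% in untreated cells, 90.6% and 26.9% after NaPr and 44.2% and 49.15% after NaBu, and that for H3K18pr was 21.9% and 0%. The H3K18ac ranges of the 3 conditions overlapped. TK1/AFMID (chr17:78186233-78188358) and COL4A4/COL4A3 (chr2:227163453-227165624) had a peak in 10 libraries each. The cover of COL4A4/COL4A3, genes of basement membrane collagen, was 87.5% and 89.1% for H3K18ac in untreated cells, 67.8% and 42.6% after NaPr and 0% in all 8 NaBu libraries. PSMB1/TBP and PDCD10/SERPINI1 had a peak in 17 libraries each.

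**Figure D2:**
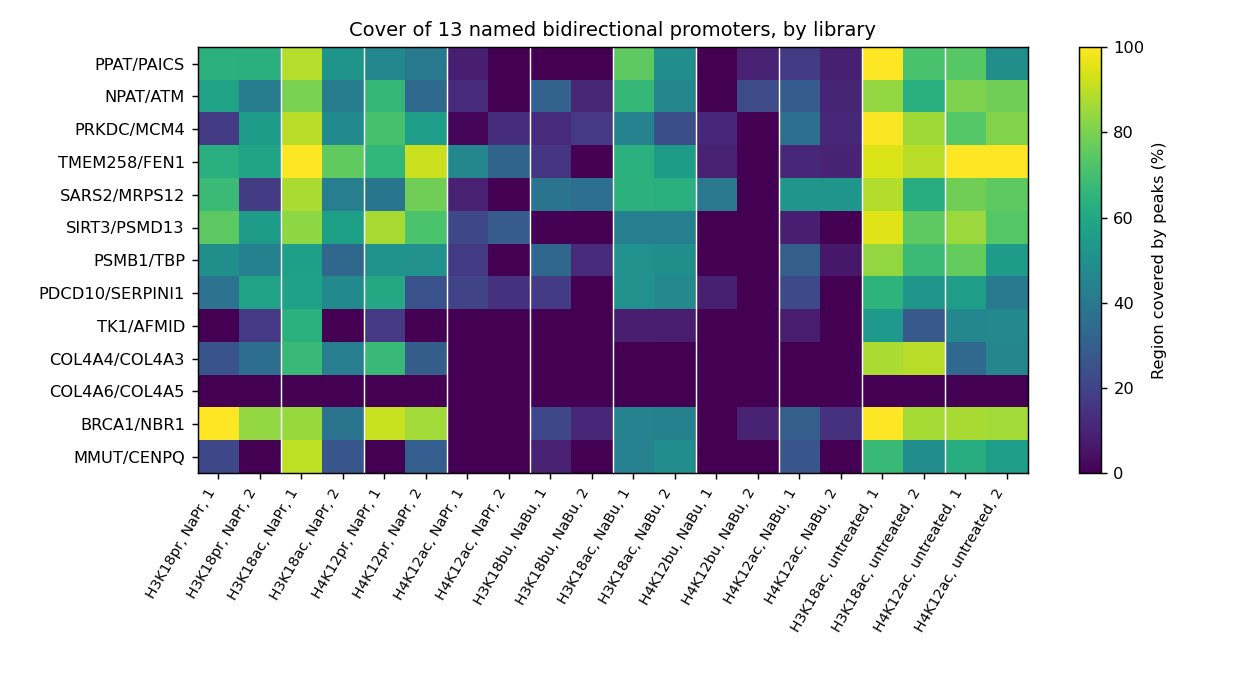
Percentage of each region covered by peaks (colour, 0 to 100%) for the 13 named pairs (rows) in the 20 immunoprecipitated libraries (columns, by group and replicate). The 4 untreated columns on the right hold cover in 12 of 13 rows, the butyryl columns and those of H4K12ac after NaPr are mostly dark, and COL4A6/COL4A5 is at 0 in every column.

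Grouped by gene family, the pairs with a cytosolic ribosomal protein gene were the most widely marked of the families with more than 3 members, with a median of 17 libraries over 13 members, against 14 over all 887. All 13 were marked in both libraries of H3K18pr, H4K12pr, of the 3 H3K18ac groups and of H4K12ac in untreated cells, where 70.2% to 93.7% of all members were. In H4K12ac after NaPr 9 of 13 were marked in both libraries, against 32.7% of all members, and in H4K12bu 6 of 13, against 12.4%. Mitochondrial ribosomal protein genes (18 members) had a median of 16.5 libraries, oxidative phosphorylation genes (28 members) 15, and the 3 pairs with a transfer RNA synthetase gene 18. DNA replication and repair genes (30 members) had a median of 13, zinc finger genes (30 members) 14, proteasome genes (7 members) 14 and solute carrier genes (12 members) 12.5. The 15 members with a replication-dependent histone gene had a median of 15. Of these, 14 were marked in both libraries of H3K18ac and H4K12ac in untreated cells (93.3%), against 93.7% and 92.2% of all members. In both libraries of H4K12ac, 8 were marked after NaPr (53.3%) and 4 after NaBu (26.7%), against 32.7% and 30.1% of all members. The butyryl counts were 1 for H3K18bu (6.67%) and 0 for H4K12bu, against 20.9% and 12.4%. The exception in untreated cells was H2AC1/H2BC1, which had no peak in any library and whose genes are known from the testis. Histone genes are near-identical copies, so that reads in their coding parts may have been placed among them with error.

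The comparison of acyl with acetyl marks asked whether propionylation and butyrylation occupy other promoters than acetylation of the same lysine under the same treatment. H4K12pr was found at 84.6% ± 4.70 (SD, n = 2) of members and H4K12ac after NaPr at 46.4% ± 6.62, a difference of 38.2 points with no overlap between the libraries. The other differences were negative, −8.46 points for H3K18pr (79.6% ± 5.74 against 88.1% ± 9.57), −51.4 for H3K18bu (33.2% ± 9.57 against 84.6% ± 7.81) and −26.3 for H4K12bu (20.1% ± 5.02 against 46.5% ± 20.7). The libraries of the butyryl and acetyl groups did not overlap, while those of H3K18pr and H3K18ac did, and without H3K18ac replicate 1, the library that stood apart, the difference for H3K18pr was −1.69 points. Over the 4 comparisons the mean difference was −12.0 points (two-sided exact permutation test over libraries within comparisons, adjusted p = 0.367), or −10.3 points without that library, and within a treatment it was 14.9 points in NaPr and −38.9 in NaBu. With 8158 peaks from each library, H4K12pr was found at 27.1% and 27.7% of members against 17.9% and 16.0% for H4K12ac, and H3K18bu at 19.5% and 16.0% against 38.8% and 33.3% for H3K18ac, so that both directions stayed, with smaller differences.

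Single members were called one-sided when both libraries of a group had a peak and neither library of the other group had one. Members were called on the whole region, and all protein-coding starts in windows of 2000 bp centred on the TSS. The windows are thus unlike, and the starts of the members are among all starts. H4K12pr stood alone at 223 members (25.1%) and H4K12ac after NaPr at 2 (0.2255%), where the shares over all protein-coding starts were 18.2% and 0.681%. H3K18pr stood alone at 1 member and H3K18ac after NaPr at 28 (3.16%), against 0.676% and 4.4% of all starts. Without H3K18ac replicate 1, the library that stood apart, these counts were 41 and 29, and without H3K18pr replicate 1 they were 2 and 110, without H3K18pr replicate 2 7 and 54, and without H3K18ac replicate 2 1 and 62. H3K18bu stood alone at 0 members and H3K18ac after NaBu at 294 (33.15%), against 0.025% and 21.5% of all starts. H4K12bu stood alone at 2 members and H4K12ac after NaBu at 85 (9.58%), against 0.0601% and 4.65% of all starts. A library left out makes the call easier to reach, and the count of 223 rose to 355 without H4K12ac replicate 1, the 294 to 462 without H3K18bu replicate 1, and the 85 to 146 without H4K12bu replicate 1 and to 312 without H4K12ac replicate 2. The 2 members of H4K12ac after NaPr became 6 to 13 with any 1 of the 4 libraries left out, and the 2 of H4K12bu became 7 to 9 without either H4K12bu library or H4K12ac replicate 1. The 0 of H3K18bu became 1 without H3K18bu replicate 2. Taken with equal numbers of peaks, H4K12pr stood alone at 65 members and H4K12ac at 17. On that basis the counts were 10 in H3K18pr against 70 in H3K18ac, 5 in H3K18bu against 89 in H3K18ac, and 4 in H4K12bu against 36 in H4K12ac. All 4 libraries had a peak at 582 members in the H3K18pr comparison, 276 in that of H4K12pr, 185 in that of H3K18bu and 101 in that of H4K12bu. For these last counts, and for those with a library left out or equal numbers of peaks, the share over all starts was not computed. Whether they differ from protein-coding starts in general is therefore not known.

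The members of H4K12pr alone with the strongest peaks were FUZ/MED25 (chr19:49816376-49819282), a planar cell polarity effector and a Mediator subunit, RSPH14/RAB36 (chr22:23144021-23146366) and TBC1D16/CCDC40 (chr17:80034872-80037632). At FUZ/MED25 the highest deposited fold enrichment, the ratio of pileup to local background at a peak's summit, was 14.9 and 15.1 in the 2 H4K12pr libraries, and peaks covered 93.1% and 88.5% of the region. The fold was 13.8 and 21.2 at RSPH14/RAB36 and 15.8 and 12.3 at TBC1D16/CCDC40, the last of which also overlapped an input peak. H4K12ac stood alone at EIF3E/EMC2, with a translation initiation factor subunit, and BTBD18/CTNND1, with p120 catenin, at a fold of 2.34 to 2.85.

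H3K18pr stood alone at ZC4H2/ZC3H12B (chrX:65033713-65035788; fold 5.98 and 4.12), whose 76 bp interval is among the sequences above. H3K18ac after NaPr stood alone at PFN4/ENSG00000276087, C17orf114/PLD2 and CENPK/PPWD1 at a fold of 3.23 to 7.83. After NaBu, H3K18ac stood alone most strongly at ARMH4/ARID4A (chr14:58297139-58299504; fold 22.01 and 18.85), with a retinoblastoma-binding protein, SMIM7/TMEM38A (fold 19.6 and 15.3) and SESN1/CEP57L1 (fold 14.1 and 11.2), with the stress-induced sestrin 1. H4K12ac after NaBu stood alone at ARMH4/ARID4A as well (fold 15.8 and 8.12), at HPS5/GTF2H1 (fold 7.30 and 6.26), with a subunit of TFIIH, and at FAM227A/CBY1 (fold 9.47 and 5.61). All 5 pairs named here for the acetyl marks after NaBu overlapped a peak of an input list, and the part of those peaks in the calls was not tested. The 2 members of H4K12bu alone were overlapping pairs of the zinc finger gene ZNF891, with ZNF10 and with ENSG00000256825, at the same folds (3.275 and 3.46).

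**Figure D3:**
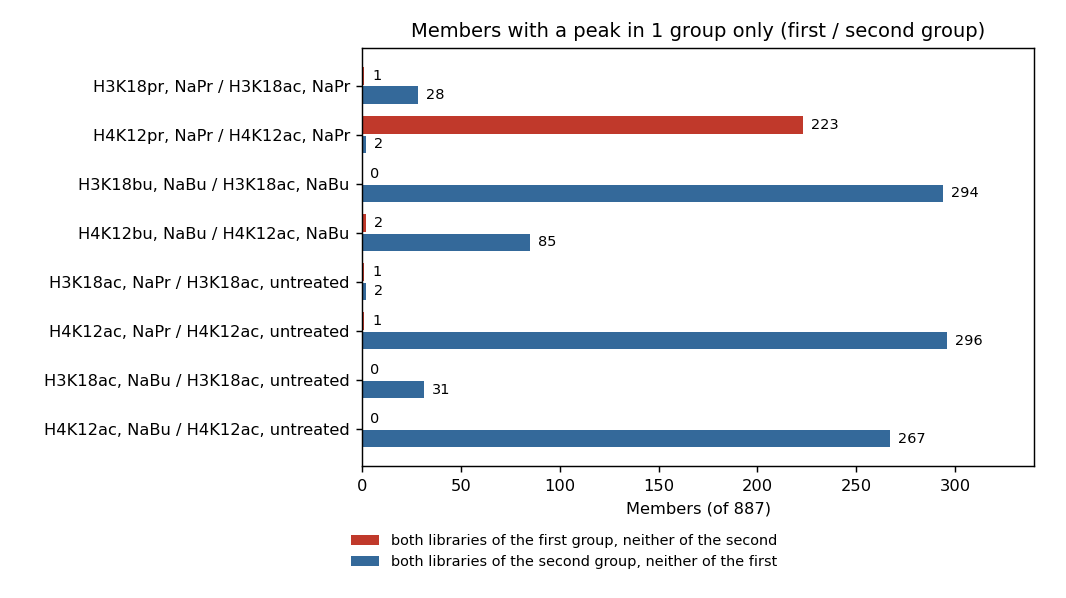
Number of members (horizontal axis) with a peak in both libraries of 1 group and in neither of the other, for 8 comparisons (vertical axis, first and second group). Red bars count members of the first group and blue bars members of the second. H4K12pr against H4K12ac in NaPr (223 and 2) is the one comparison of the 8 in which the first group holds most of the calls.

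Treated and untreated cells were compared for the acetyl marks. H4K12ac was found at 93.7% ± 0.638 of members in untreated cells, at 46.4% ± 6.62 after NaPr and at 46.5% ± 20.7 after NaBu, with no overlap between untreated and treated libraries. H3K18ac was found at 94.5% ± 0.399, 88.1% ± 9.57 and 84.6% ± 7.81. The mean difference over both marks was −26.9 points for NaPr (two-sided exact permutation test, p = 0.167, adjusted p = 0.288) and −28.6 points for NaBu (p = 0.0556, adjusted p = 0.106), and 0.0556 is the smallest p that this design allows. Without the library that stood apart the NaPr difference was −30.3 points, and for H3K18ac alone it went from −6.48 to −13.25 points. H4K12ac of untreated cells stood alone at 296 members (33.4%) against NaPr and at 267 (30.1%) against NaBu, where 24.2% and 27.2% of all protein-coding starts did. The reverse was found at 1 and 0 members, against 0.3% and 0.0601% of all starts. H3K18ac of untreated cells stood alone at 2 members against NaPr and at 31 (3.495%) against NaBu, where 1.31% and 6.94% of all starts did, and the reverse at 1 and 0 members, against 0.416% and 0.481%. The 2 members without H3K18ac after NaPr became 114 without replicate 1 of that group, the library that stood apart, 9 without H3K18ac replicate 1 of untreated cells and 3 without either other library, while the 1 of the reverse became 8 without replicate 2 of NaPr and 2 without replicate 2 of untreated cells. Against NaBu, the counts of 31 and 267 became 131 and 538 without replicate 1 of the NaBu groups, and the 296 against NaPr became 452 without H4K12ac replicate 1 of NaPr, and the reverse counts of 0 or 1 stayed at 3 or fewer with any 1 library left out except for 5 without H3K18ac replicate 2 of NaBu. When equal numbers of peaks were taken, the counts of untreated and treated cells were 149 and 3 for H4K12ac against NaPr, 117 and 21 for H4K12ac against NaBu, 55 and 0 for H3K18ac against NaPr and 85 and 14 for H3K18ac against NaBu. The share over all starts was not computed with a library left out or with equal numbers of peaks. Both comparisons share the untreated libraries, and members were again called on the whole region and starts in windows of 2000 bp.

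SLBP/TACC3 (chr4:1711344-1713858), with the protein that binds the stem-loop of histone mRNA, had the strongest H4K12ac peaks of untreated cells among the members without one after NaBu (fold 15.1 and 19.65), followed by POLR2L/TSPAN4, with an RNA polymerase subunit (9.57 and 11.1), and MTERF3/PTDSS1 (8.48 and 9.875). Against NaPr they were RHOF/SETD1B (10.8 and 9.55), with a histone H3K4 methyltransferase, LMF2/NCAPH2 (7.08 and 8.22), with a condensin subunit, and DESI1/XRCC6 (6.41 and 6.79), with the Ku70 repair protein. H3K18ac of untreated cells stood alone against NaBu most strongly at THAP4/ATG4B (18.03 and 16.3), MORN1/RER1 (12.1 and 10.8) and POLE/PXMP2 (10.4 and 10.4), with the catalytic subunit of DNA polymerase epsilon. LMF1/SOX8 and ZC4H2/ZC3H12B were the 2 members that it held alone against NaPr, SNCB/EIF4E1B the 1 member of the reverse, and BTBD18/CTNND1 that of H4K12ac after NaPr. Of the pairs named here, DESI1/XRCC6 and MORN1/RER1 overlapped an input peak.

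Between the lysines, H3K18 marks were found at 17.7 points more members than H4K12 marks over 5 comparisons, which missed the threshold (two-sided exact permutation test, p = 0.0144, adjusted p = 0.0547). The difference was −5.02 points for propionyl, 13.02 for butyryl, 41.7 for acetyl after NaPr, 38.1 for acetyl after NaBu and 0.846 for acetyl in untreated cells. Without H3K18pr replicate 2, H4K12pr replicate 1 or H3K18bu replicate 2, it passed (18.5, 18.4 and 19.1 points, exact permutation tests, adjusted p = 0.0303, 0.0332 and 0.0401). With equal numbers of peaks the difference was 5.21 points (exact permutation test, adjusted p = 0.152). Without H3K18ac replicate 1 of NaPr it was 16.4 points, and the value for acetyl after NaPr was 34.9 points.

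The number of marked members depends on how much of the genome a list covers, so cover was also set against the genome. In untreated cells, peaks covered 70.0% and 58.7% of member bases for H3K18ac and 58.3% and 55.7% for H4K12ac. After NaPr the cover was 64.95% and 32.4% for H3K18ac, 12.5% and 8.32% for H4K12ac, 44.1% and 33.2% for H3K18pr and 46.2% and 40.85% for H4K12pr. After NaBu it was 41.4% and 27.9% for H3K18ac, 14.4% and 6.40% for H4K12ac, 8.54% and 5.23% for H3K18bu and 4.21% and 2.78% for H4K12bu. Relative to the share of the genome that a list covered, this was an enrichment of 8.43-fold and 6.61-fold in H4K12ac after NaPr. These were the lowest 2 of the 20 immunoprecipitated libraries, and H4K12bu had 37.0-fold and 30.4-fold. The enrichment was 12.2-fold and 15.2-fold in H4K12pr and 18.1-fold and 16.0-fold in H3K18pr. It was 16.4-fold in the untreated input, 1.52-fold in the NaPr input and 1.01-fold in the NaBu input. On the log2 scale the enrichment differed by 0.08 between acyl and acetyl marks (exact permutation test, adjusted p = 0.824), by −0.95 between NaPr and untreated cells (p = 0.0556, adjusted p = 0.106), by 0.18 between NaBu and untreated cells (adjusted p = 0.938) and by 0.31 between H3K18 and H4K12 (adjusted p = 0.319). With equal numbers of peaks the acyl, NaBu and H3K18 differences changed sign (−0.56, −0.45 and −0.10).

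The marks also differed in where they lay within the promoter. A member was called bridged when 1 peak covered both of its TSSs, and the share of bridged among occupied members was higher for H3K18 than for H4K12. In untreated cells it was 54.7% and 33.1% for H3K18ac and 14.5% and 15.2% for H4K12ac. After NaPr it was 19.7% and 17.75% for H3K18ac and 5.08% and 4.05% for H4K12ac, and after NaBu 28.4% and 12.7% against 6.64% and 2.84%. It was 35.6% and 25.4% for H3K18pr and 25.8% and 23.9% for H4K12pr, whose libraries overlapped, and 6.22% and 4.27% for H3K18bu and 4.29% and 6.12% for H4K12bu, which overlapped as well. The mean difference between H3K18 and H4K12 was 12.9 points over 5 comparisons, with the group mean higher for H3K18 in 5 of 5 (two-sided exact permutation test, p = 0.002315, adjusted p = 0.0110), although by only 0.0400 points in the butyryl comparison. With equal numbers of peaks the difference was 19.8 points (exact permutation test, adjusted p = 0.00489).

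Peak width differed between the groups too. The median width of the widest peak at a marked 2000 bp window was 1558 and 997 bp in H3K18ac of untreated cells, 1040 and 986 bp in H4K12ac of untreated cells, 387 and 323 bp in H4K12ac after NaPr and 277 to 344 bp in the butyryl libraries, and the part of width in bridging was not tested. Bridging differed by −17.7 points between NaPr and untreated cells and by −16.7 points between NaBu and untreated cells, negative for both marks and without overlap (exact permutation tests, p = 0.0556 each, the smallest possible, adjusted p = 0.106). The NaPr value was −18.2 points without the library that stood apart. Propionyl marks were bridged more often than acetyl marks after NaPr, by 11.7 points for H3K18 (12.7 without that library) and 20.3 points for H4K12 without overlap, and over all 4 acyl comparisons the difference was 4.28 points (exact permutation test, adjusted p = 0.473). Among the named pairs, TMEM258/FEN1 was bridged in 11 of 20 libraries, and FUBP1/DNAJB4 in 13, while PSMB1/TBP, with TSSs 995 bp apart, and NPAT/ATM, at 406 bp, were bridged in 0.

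With all peaks of the lists, cover was lower between the TSSs than outside them. The percentage of members under a peak at the midpoint was compared with the mean of the 2 positions 500 bp outside the TSSs. For H4K12ac of untreated cells, 21.9% and 21.98% of midpoints and 68.55% and 65.5% of flanks were under a peak. For H3K18ac of untreated cells the shares were 59.98% and 40.0% of midpoints and 78.7% and 67.9% of flanks. The propionyl libraries had the same order, with 29.1% and 26.8% of midpoints against 56.2% and 49.7% of flanks for H4K12pr and 37.3% and 26.3% against 53.1% and 39.6% for H3K18pr. Midpoint minus flank was −16.1 points over the 10 group means and negative in 10 of 10 (two-sided exact sign-flip permutation test, adjusted p = 0.0110), but its size ranged from −45.1 points in H4K12ac of untreated cells to −0.338 in H4K12bu. By the same exact permutation test it missed the threshold with peaks of q under 0.05 (−14.8 points, adjusted p = 0.05195) and with equal numbers of peaks (−1.79 points, adjusted p = 0.175). With q under 0.05 it was positive in all butyryl libraries (0.395 to 2.03) and H4K12ac replicate 2 after NaBu (1.35), and negative in the others. With equal numbers it was positive in both libraries of H3K18bu (1.69 and 0.564), H3K18ac after NaBu (3.04 and 1.13) and H4K12ac after NaPr (0.282 and 0.902). It was then negative in both of H4K12pr, H4K12bu and either untreated group, and mixed in the other groups.

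The untreated input differed from the 20 immunoprecipitated libraries in direction, with 11.3% of midpoints and 2.42% of flanks under a peak. The dip differed between marks and treatments without passing the test, by 2.59 points between acyl and acetyl marks (exact permutation test, adjusted p = 0.824), 14.8 between NaPr and untreated cells (adjusted p = 0.325), 27.85 between NaBu and untreated cells (p = 0.0556, adjusted p = 0.106) and 0.248 between H3K18 and H4K12 (adjusted p = 0.974). The NaPr difference joined opposite signs, −8.625 points for H3K18ac and 38.2 for H4K12ac. Without H3K18ac replicate 1 of NaPr, the value of H3K18ac was 7.61 points, and the acyl and NaPr differences were −1.47 and 22.9 points. Without H3K18ac replicate 2 of NaPr, the NaPr difference was 6.67 points. With equal numbers of peaks the NaPr and NaBu differences were 4.55 and 7.65 points.

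**Figure D4:**
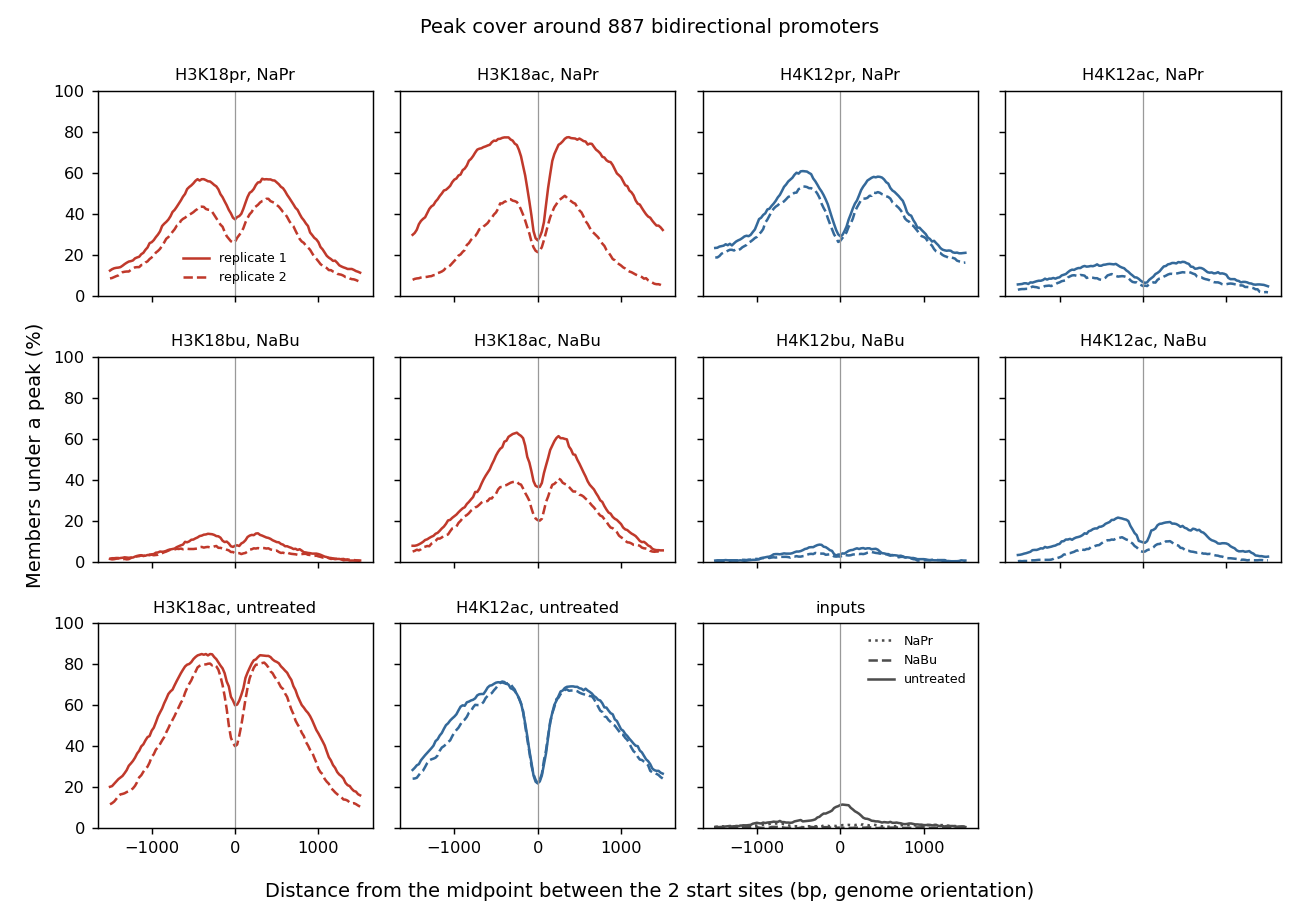
Percentage of the 887 members under a peak (vertical axis) by distance from the midpoint between the TSSs in bp (horizontal axis, genome orientation), for each group with replicate 1 solid and replicate 2 dashed, red for H3K18 and blue for H4K12, and for the 3 inputs in grey. Cover has 2 tops 225 to 550 bp from the midpoint and a low between them in the 20 immunoprecipitated libraries, while the untreated input has a single top of 11.5% at 25 bp.

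The dip depended on how far apart the TSSs were. Midpoint minus flank had a median over the 20 libraries of −11.0 points for the 146 members with TSSs at most 50 bp apart, −11.0 for 196 members at 51 to 100 bp and −17.6 for 253 members at 101 to 200 bp, and was negative in 20, 19 and 20 of 20 libraries. It was −12.8 for 180 members at 201 to 400 bp, negative in 13, and 3.13 for 112 members at 401 to 1000 bp, negative in 5. In the last group the midpoint was under a peak in a median of 37.5% of members, against 9.88% at 101 to 200 bp. A bridging peak must span the distance between the TSSs, so that short spacing favours bridging by construction. Bridging was most frequent at short spacing, with a median over libraries of 29.1% of occupied members at most 50 bp apart, 19.7% at 51 to 100 bp, 9.23% at 101 to 200 bp, 13.1% at 201 to 400 bp and 8.55% beyond. The share of members with a peak in the 2000 bp window had no such order, with medians of 78.4%, 81.4%, 76.3%, 86.9% and 75.9% from the shortest to the longest spacing.

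**Figure D5:**
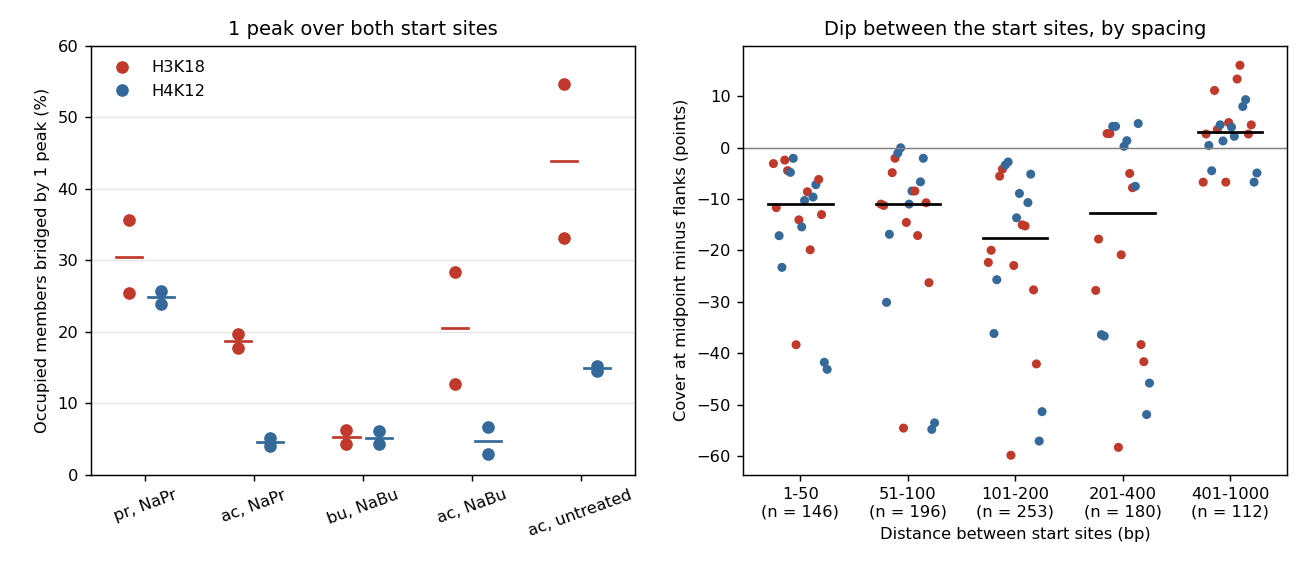
Left, percentage of occupied members bridged by 1 peak (vertical axis) for 5 mark and treatment comparisons (horizontal axis), with libraries as points and group means as lines, red for H3K18 and blue for H4K12. Right, percentage of midpoints minus percentage of flanks under a peak, in points (vertical axis), for members binned by distance between TSSs (horizontal axis), with the 20 libraries as points and their median as a line, which lies at −17.6 points for 101 to 200 bp and at 3.13 points for 401 to 1000 bp.

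Base composition went with the marks in different directions when the lowest and highest of 4 classes were compared. Members were split by G and C content into 4 classes, with 34.9% to 52.15% in the lowest and 60.9% to 77.55% in the highest. H4K12bu was found at 24.2% of members of the lowest and 9.502% of the highest class, H3K18bu at 37.9% and 20.8%, H4K12ac after NaPr at 54.5% and 33.7% and H4K12ac after NaBu at 52.5% and 34.6% (means of 2 libraries). H3K18pr was found at 74.2% and 80.8%, H4K12pr at 78.9% and 83.7%, H3K18ac after NaPr at 84.3% and 91.4%, H3K18ac after NaBu at 84.75% and 80.5%, and H3K18ac and H4K12ac of untreated cells at 91.5% and 96.15% and at 92.15% and 93.9%. Only H4K12ac after NaPr, H3K18ac after NaPr and H3K18ac of untreated cells changed steadily over the classes. H3K18pr (84.1%) and H4K12pr (88.2%) were highest at 56.65% to 60.85% G and C. The butyryl marks (H3K18bu 39.9%, H4K12bu 25.1%), both acetyl marks after NaBu (87.7% and 52.9%) and H4K12ac of untreated cells (95.1%) were highest at 52.2% to 56.6%. Members with a YY1 element had a peak in a median of 16 libraries and those without in 14, and the ETS element gave 15 and 14. The NF-Y and SP/KLF boxes gave 13 with and 14 without, the CGCG palindrome 13.5 and 14, and the other 3 elements 14 in either case. H4K12ac after NaPr was found in both libraries at 58.5% of the 53 members with a YY1 element and 31.1% of those without, and at 42.7% of the 124 members with an ETS element and 31.1% of those without. The order was the reverse for the NRF1 element (28.4% with and 33.1% without), the NF-Y box (29.7% and 34.7%), the SP/KLF box (30.1% and 38.85%) and the CGCG palindrome (31.8% and 32.7%). It was 43.5% and 32.1% for TATAAA and 37.04% and 32.6% for the AP-1 element. These shares are descriptions of the members and were not tested.

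The overlap between replicates differed among the groups. Of the members marked in replicate 2, 92.99% were marked in replicate 1 for H3K18pr, 95.6% for H4K12pr, 99.6% for H3K18ac after NaPr, 98.7% and 94.7% for H3K18ac and H4K12ac after NaBu, and 98.8% and 98.9% for H3K18ac and H4K12ac of untreated cells. The share was 79.1% for H3K18bu, 74.8% for H4K12bu and 78.4% for H4K12ac after NaPr. Of the members marked in replicate 1, fewer were marked in replicate 2 in the treated groups, with 49.3% for H4K12ac after NaBu, 52.3% for H3K18bu, 52.4% for H4K12bu and 64.0% for H4K12ac after NaPr. The other 4 treated groups had 83.96% to 88.3%, and the untreated groups 99.4% and 97.96%.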

How the data were processed

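ChIP-seq peak lists of 23 libraries were used. Per the submitters' processing notes, reads were handled with bcl2fastq 2.17.1, cutadapt 1.8.1, Bowtie2 2.3.1 and MACS2 2.1.0 on hg38. The authors deposited 1 peak list per library, and the names of the lists give a p threshold of 0.01, an upper limit on their length and a filter that was read as one on blacklisted regions. Each deposited peak carries a fold enrichment, which is a ratio, and −log10 p-values and −log10 q-values, and none were recomputed. Reads were not analysed here, and the study compared read counts, so that a missing peak is not a missing mark.

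Gene starts and sequence came from GENCODE 44 and hg38. Members and lists were chosen with earlier results of these data known. Named pairs were 32 pairs fixed by name, up to 3 one-sided members for each comparison and direction with the highest fold in their weaker library, the 5 best covered of the members marked in 20 libraries and the first 5 unmarked members. One member that this rule names is not reported here. Groups follow the labels. Exact permutation tests over libraries within strata, and sign-flip permutation tests over the 10 group means, were adjusted over 19 tests, with calls at adjusted p under 0.05. Alternatives were peaks of q under 0.05, equal numbers of peaks, summits inside the region, 500 bp flanks, fewer members, CpG-rich windows, a replicate block and each library left out. Scripts ran in Python 3.11.15 with SciPy 1.17.1 and pysam 0.24.0 and were tested on simulated peaks.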

Additional observations from a re-analysis of the deposited data

Results flagged for a closer look

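Comparisons in which the libraries of 2 strata moved in opposite directions without overlap within either are listed here; none of these differences between strata was itself tested. The percentage of members with a peak was 38.2 points higher for H4K12pr than H4K12ac in NaPr and 26.3 points lower for H4K12bu than H4K12ac in NaBu, which differ by 64.5 points. The log2 cover enrichment of acyl over acetyl was −0.35 for H3K18pr and 0.87 for H4K12pr, a difference of −1.22. The log2 cover enrichment of H3K18 over H4K12 was −0.72 for butyryl, 0.32 for propionyl, 1.54 for acetyl in NaPr and 0.42 for acetyl in untreated cells. Propionyl minus butyryl was 1.04, butyryl minus acetyl in NaPr −2.26 and butyryl minus acetyl in untreated cells −1.14. Bridging by 1 peak was 11.7 points higher for H3K18pr than H3K18ac in NaPr and 15.3 points lower for H3K18bu than H3K18ac in NaBu, 27.0 points apart.

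Midpoint minus flank for acyl against acetyl at H4K12 was −18.1 points in NaPr and 3.44 in NaBu, a difference of −21.5. For H3K18 against H4K12 it was 10.4 points for propionyl, which differed from butyryl (−0.874) by 11.3 points, from acetyl in NaPr (−25.0) by 35.4 points and from acetyl in NaBu (−5.13) by 15.6 points. The same value was 21.8 points for acetyl in untreated cells, and relative to it butyryl differed by −22.7, acetyl in NaPr by −46.8 and acetyl in NaBu by −26.9 points. Without the H3K18ac library that stood apart, the value of acetyl in NaPr was −8.77 points, and it lay 19.2 points below propionyl and 30.6 points below acetyl in untreated cells.

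The untreated input, which entered no comparison between groups, had a peak at 30.0% of members, above the other inputs (10.4% and 3.38%), and was higher at the midpoint than at the flanks by 8.85 points, where the 20 immunoprecipitated libraries were lower.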

How the results depend on the processing

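A list without a peak does not show that a mark is absent, lists held 8158 to 208823 peaks, and neither propionyl and acetyl in NaPr nor NaBu and untreated cells can be told apart from their runs. Differences between marks cannot be told apart from those between their antibodies. With other settings, 107 of 119 tested values kept direction and side of the threshold. With q under 0.05, midpoint minus flank over all groups was −14.8 points and the log2 cover difference of acyl minus acetyl −0.0189. With equal numbers of peaks, midpoint minus flank was −1.79 over all groups and −0.155 for acyl minus acetyl, and the log2 cover differences were −0.56 (acyl minus acetyl), −0.45 (NaBu minus untreated) and −0.10 (H3K18 minus H4K12). In NaPr alone, acyl minus acetyl was 14.9 points for members with a peak and −0.381 for midpoint minus flank. In NaBu alone it was −0.0916 for log2 cover and −7.42 for bridging. With 1 member per overlapping group, midpoint minus flank for H3K18 minus H4K12 was −0.0546. Fewer peaks are part of the first 2 settings by construction, and otherwise the cause was not tested.

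The first group's share of one-sided members moved with q under 0.05 to 100% (H4K12pr against H4K12ac), 0% (H4K12bu against H4K12ac) and 0% (H4K12ac, NaPr against untreated). With equal numbers it moved to 79.3%, 5.32% (H3K18bu), 10.0% (H4K12bu), 0% (H3K18ac, NaPr against untreated), 1.97% (H4K12ac), 14.1% (H3K18ac, NaBu against untreated) and 15.2% (H4K12ac).

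With 1 library left out, the H3K18 minus H4K12 difference in members with a peak ranged from 14.8 to 20.65 points and passed the threshold in 3 of 20 fits. Ranges that crossed 0 were −0.0735 to 0.243 (log2 cover, acyl minus acetyl), −0.14 to 0.49 (log2 cover, NaBu minus untreated), −1.47 to 6.65 (midpoint minus flank, acyl minus acetyl) and −3.00 to 3.495 (H3K18 minus H4K12), and midpoint minus flank for NaPr minus untreated ranged from 6.67 to 22.9. One-sided shares ranged from 1.59% to 58.6% (H3K18pr), 95.6% to 97.9% (H4K12pr), 0.637% to 8.57% (H4K12bu), 0.870% to 72.7% (H3K18ac, NaPr against untreated) and 0% to 11.1% (H3K18ac, NaBu against untreated).

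Replicate numbers were not shown to pair libraries (correlations of replicate differences −0.101 to 0.308). A replicate block changed no call, with H3K18 minus H4K12 bridging at 12.9 points (exact permutation test, adjusted p = 0.0278). With the pairing crossed in the 1 comparison under −0.1, chosen after seeing the data, 0 of 4 results were called.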
